A study of Caenorhabditis elegans with 30 samples.

Results

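The step from 24 to 48 h of starvation arrest was examined in the double mutant irld-39(duk1); irld-52(duk17), strain LRB444, called irld here. The members are the 3 libraries of irld larvae at 48 h and the 3 at 24 h, 6 of the 30 libraries of the study, chosen by their labels for strain and hours of arrest and by no measured value. The whole study sequenced polyadenylated RNA from Caenorhabditis elegans L1 larvae of irld and of the wild-type strain N2 at 6, 12, 24, 48 and 72 h of arrest, with 10 groups of 3 biological replicates. All groups share the same regime: embryos were released by bleaching into S-basal, a salt buffer without food, shaken at 20 degrees C, so that the larvae hatched and stayed unfed. The 24 and 48 h collections were made 36 and 60 h after bleaching. What the alleles remove is not stated in the labels. Every library is a pool of whole larvae. Time without food and time since hatching are the same quantity in this design and cannot be told apart.

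A C. elegans larva that hatches without food halts before its first postembryonic divisions and can wait for days in this L1 arrest. The insulin receptor DAF-2 and the FOXO transcription factor DAF-16, which the receptor inhibits, set how long such larvae survive. The irld genes encode proteins with receptor L domains, the fold that binds ligand in the insulin and EGF receptors. Body surface and pharynx are each lined by a cuticle, and the genes of that cuticle are used in bursts around hatching and each molt.

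The worm gene counts of the 6 libraries ran from 8862886 to 12698097. Of 46911 worm genes, 15508 had enough counts over the 30 libraries to be tested. Markers of hypodermis, intestine, muscle, neurons and germline were present, though not every one at a clear level. The hypodermal gene lin-26 stood at 57.7 to 71.1 CPM over the 6 libraries and the germline gene mes-2 at 17.9 to 20.4 CPM. Hypodermal dpy-7 (0.675 to 3.61 CPM) and germline nos-1 (0.722 to 1.74 CPM) and nos-2 (0.212 to 3.65 CPM) were low. Their levels overlap those of the yolk genes vit-1 to vit-6, which stayed at or below 7.59 CPM. The 31 sperm genes of the msp family had 3 to 19 counts per library in all. Embryo markers were mixed: end-3 and med-1 had 11 and 26 counts over the 6 libraries, while pos-1 (8.38 to 45.9 CPM) and mex-5 (4.35 to 21.6 CPM) were present. irld-39 had 3 counts over the 24 h libraries and 8 over the 48 h libraries, and irld-52 had 7 and 9. Both are too few to check the genotype or to follow over time. All levels are CPM, read counts scaled to a common library size with TMM factors, and differences are log2 of 48 h over 24 h with their standard error, from edgeR's quasi-likelihood test with Benjamini-Hochberg adjustment over the 15508 genes.

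Replicates within a time did not lie equally close. On the first principal component of the 6 libraries (34.57% of the variance) the 48 h libraries numbered 1 and 2 lay at 51.5 and 48.0, and the 48 h library numbered 3 lay at -35, beside the 24 h libraries at -15.8, -28.3 and -20.4. The 24 h library numbered 3 stood apart on the second component (24.46%), at 63.2 against -26.2 and -7.7.

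**Figure D1:**
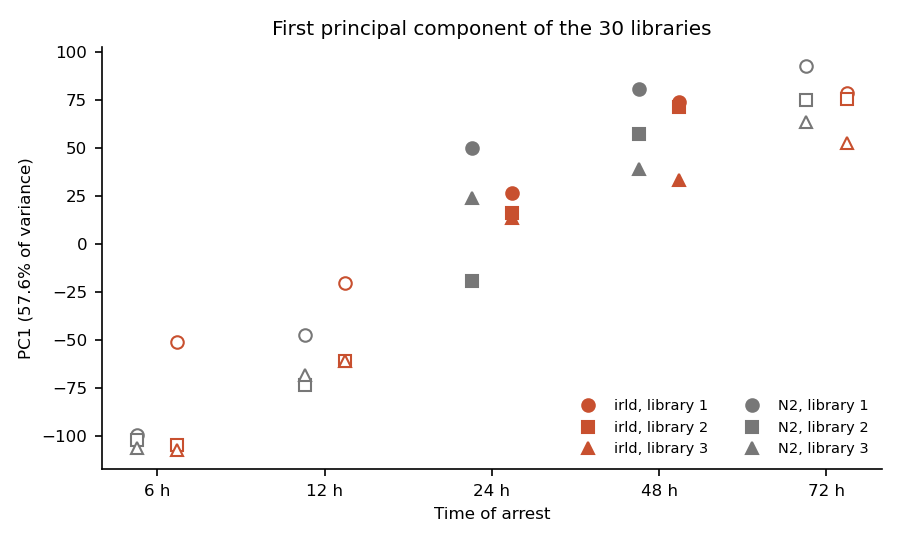
First principal component (vertical axis, 57.65% of the variance of the 30 libraries) against hours of arrest. Each symbol is 1 library, orange for irld and grey for N2, filled at 24 and 48 h; the irld libraries lay at 26.7, 16.24 and 13.4 at 24 h and at 73.8, 71.2 and 33.3 at 48 h.

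The genes by which these libraries differed most from their partners were read out after the values were seen. lin-42, the worm homolog of the clock gene period, whose level cycles with the molts, stood at 1.67, 42.4 and 101 CPM in the 24 h libraries numbered 1, 2 and 3 and at 0.915, 0.675 and 130 CPM in those of 48 h. chs-2, the chitin synthase gene of the pharynx, went with it, at 12.5, 23.3 and 32.2 CPM and then 3.57, 4.53 and 65.5 CPM. So did abu-14, a pharyngeal cuticle gene, at 90.9, 184 and 113 CPM and then 25, 1.64 and 262 CPM. In all 3 genes the 48 h library numbered 3 was the highest of the 6, while its partners were low. They were also high in 1 N2 library at 24 h, where lin-42 stood at 230 CPM against 1.14 and 16.7, and abu-14 at 483 CPM against 22.4 and 91.8. The 24 h library numbered 3 was high for genes of pharyngeal muscle and sensory neurons. The pharyngeal myosin gene myo-2 stood there at 2841 CPM against 564 and 594, and daf-7, a TGF-beta ligand of sensory neurons, at 145 CPM against 15.6 and 26.8. In bulk RNA, fewer cells of a type and less RNA per cell cannot be told apart. Ribosomal RNA left in the libraries was lowest in those numbered 3: rrn-3.1 stood at 37374, 29367 and 5540 CPM at 24 h and at 31620, 31799 and 12468 CPM at 48 h, and its part in the results was not tested. Values without both libraries numbered 3 are an alternative added after seeing the data.

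From 24 to 48 h, 99 of 15508 genes (0.638%) changed in irld, 63 higher (0.406%) and 36 lower (0.232%). The rises were small, from 0.46 to 1.39 with a median of 0.71, and 6 of them reached 2-fold. The falls were deeper: 27 of the 36 reached 2-fold, and 33 falls lay between -0.56 and -3.53. The other 3 have no usable size. fbxa-144, an F-box gene, stood at 1117, 5.80 and 2.97 CPM at 24 h and at 8.05, 4.24 and 5.66 CPM at 48 h, so a single library made its call, and without that library its difference was 0.44. abu-1 had 16 counts at 24 h and 0 at 48 h, which is at least 5.54-fold lower when 3 counts over the group are taken as the floor, and otpl-8 had 46 and 1. In the other 98 called genes the 3 and 3 libraries did not overlap, as in 17.4% of all tested genes. The largest named rises and falls were chosen among genes without overlap, so that trait is no added evidence for them. The same holds for the other called genes, nearly all of which share it. All 99 are protein-coding. Exons of 30 overlap a gene on the opposite strand and those of 7 a gene on the same strand, and since use of strand in counting is not stated, reads of such pairs cannot be separated.

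These calls rest on all 6 libraries together and on the fit over all 30, N2 included. Fitting the 6 libraries alone gave 0 calls, and fitting the 15 irld libraries alone gave 2. Leaving out the 48 h library numbered 1, 2 or 3 left 0, 21 or 24 calls, and leaving out the 24 h library numbered 1, 2 or 3 left 47, 1 or 50. Without both libraries numbered 3, 12 genes were called, 7 of them among the 99. Of the called genes named here, otpl-8 aside, col-98, col-160, abu-8, abu-10, grd-3 and mup-4 were then still called and all others lost their call, the rises included. Scaling by library size alone gave 32 higher and 72 lower calls. Scaling on the ERCC spike-in, which was added per amount of RNA, gave 0 higher and 3 lower with the median gene at -0.47. ERCC counts ran from 0.8046 to 3.202% of the worm gene counts in the 24 h libraries and from 0.9243 to 3.597% at 48 h. The part of this spread in the ERCC-scaled values, here and below, was not tested. Each change is therefore read against the rest of the genes, whose median lay at -0.038.

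**Figure D2:**
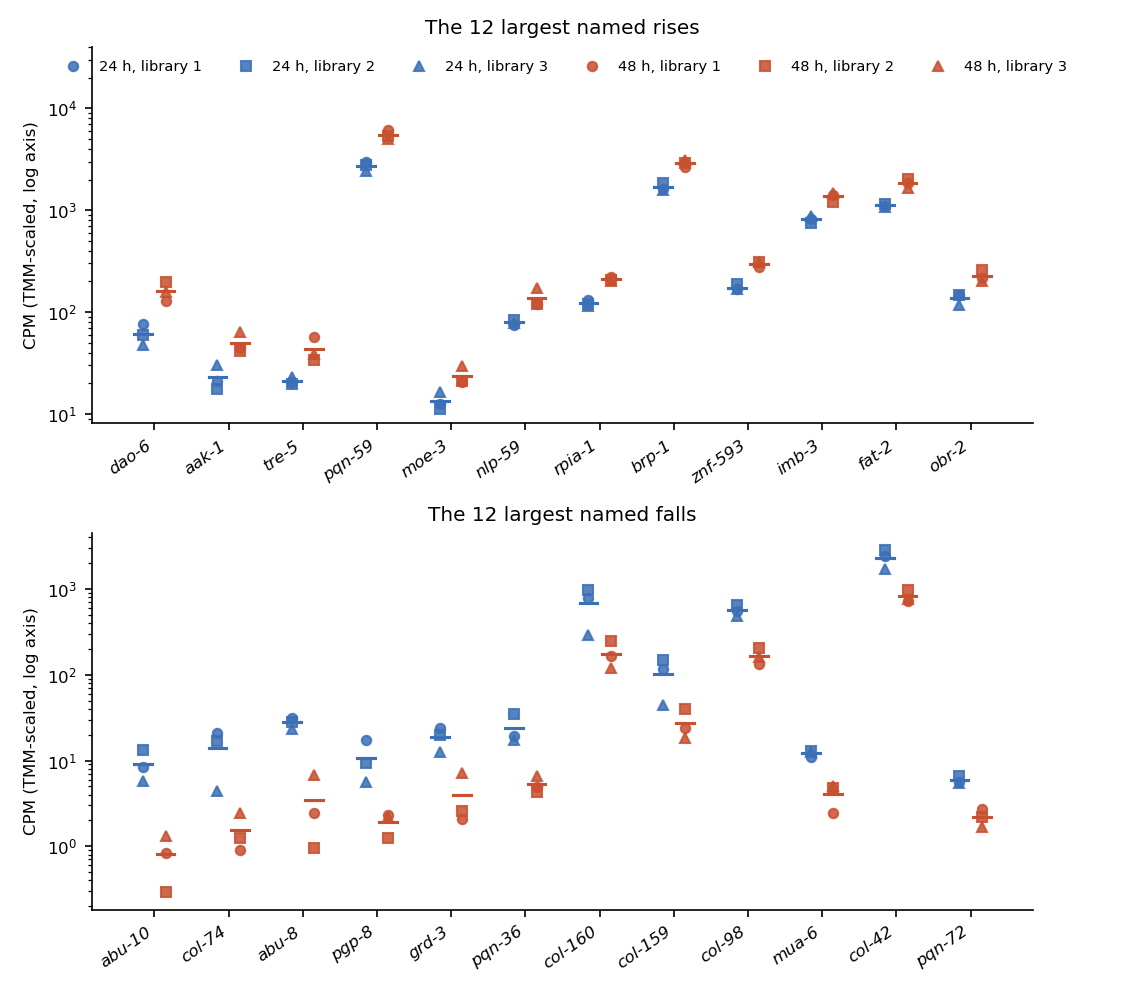
CPM (TMM-scaled, log axis) of the 12 largest named rises and falls in the 6 irld libraries, blue at 24 h and orange at 48 h, with the symbol giving the library number and the bar the mean of 3. In each gene shown all 3 libraries of one time lie above all 3 of the other, which the rule that chose these genes required. Rises span 0.72 to 1.39 on the log2 scale and falls -1.4 to -3.53.

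Several genes of the body cuticle fell. Cuticle collagens are secreted by the hypodermis in short bursts and crosslinked into the larval surface. Of 126 tested collagen genes, 7 were lower and 0 higher, against 0.232% of all genes lower, and at an unadjusted p under 0.05 34 were lower and 4 higher, against 5.76% and 4.83% of all genes. The list median was -0.72. Summed over the list, collagen RNA stood at 10840, 11800 and 6529 CPM at 24 h and at 4537, 5984 and 4221 CPM at 48 h. The 24 h library numbered 3 was the lowest of its time, and the groups still did not overlap. The sum includes the 7 collagens called for this change, so that lack of overlap is no added evidence for the family. Whether it holds without them was not counted. Without both libraries numbered 3, 2 collagens were called lower and the median was -0.76.

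col-98 (III 13019008 to 13020226, WBcel235) gave the smallest adjusted p of all genes. It stood at 552, 656 and 485 CPM at 24 h and at 133, 204 and 160 CPM at 48 h, a difference of -1.77 ± 0.25 (edgeR adjusted p = 0.00349). All 3 libraries at 48 h were lower than any at 24 h, and the call was lost in 5 of 21 alternative settings, against 8 to 16 for the other called genes named here that were run in all 21. col-42 (V 18638484 to 18639591) stood at 2404, 2832 and 1699 CPM and then at 718, 974 and 768 CPM (-1.50 ± 0.28, adjusted p = 0.0140). col-166 went from 61.7, 71.7 and 45.8 CPM to 21.1, 26.9 and 20.2 CPM (-1.39 ± 0.27, adjusted p = 0.0146). In both the 24 h library numbered 3 was again the lowest of its time. col-160 and col-159, neighbours on chromosome V whose exons overlap on the same strand, fell by 1.95 ± 0.40 and 1.91 ± 0.40, and their reads could be shared. col-74 fell by 3.241 ± 0.72 (adjusted p = 0.0382) from 20.9, 17 and 4.46 CPM to 0.915, 1.253 and 2.41 CPM, so the 24 h library numbered 3 lay nearer to the 48 h libraries than to its own partners. Collagen genes resemble each other, and reads with more than 2 alignments were dropped, so single members are less certain than the family.

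nas-11 (X 6713577 to 6716357), an astacin metalloprotease gene among the enzymes that process collagens and cuticle, stood at 19.7, 21.4 and 19.7 CPM at 24 h and 7.68, 6.75 and 8.91 CPM at 48 h. The difference of -1.39 ± 0.25 (edgeR adjusted p = 0.0136) compares with SDs of 0.985 and 1.08 CPM within the times, and the groups did not overlap. Of the 35 tested members of this list 1 was lower and 0 higher, with 3 lower and 1 higher at an unadjusted p under 0.05 and a median of -0.19.

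The cuticle that lines the pharynx holds its own glutamine-rich proteins, encoded by the abu and idp genes. Of 42 tested members, 4 were lower and 0 higher, and 15 were lower and 1 higher at an unadjusted p under 0.05, with a median of -1.4. abu-8 (V 5192995 to 5194608) stood at 31.7, 28.2 and 23.6 CPM at 24 h and at 2.47, 0.964 and 6.86 CPM at 48 h (-3.06 ± 0.55, edgeR adjusted p = 0.0136). abu-10 (X 3798182 to 3799741) stood at 8.35, 13.3 and 5.84 CPM and then at 0.823, 0.289 and 1.32 CPM (-3.53 ± 0.64, adjusted p = 0.0136). In both genes the 48 h library numbered 3 was the highest of its time and still below every 24 h library. abu-7 fell by 2.71 ± 0.48 and abu-1, given above, had no count at 48 h. The list as a whole did not separate the times in every library: its summed level was 267, 384 and 375 CPM at 24 h and 115, 76.8 and 370 CPM at 48 h, and the 48 h library numbered 3 lay among the 24 h libraries. Without both libraries numbered 3 the median was -1.59 and 2 members were called lower.

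Hedgehog-related genes encode secreted proteins of the hypodermis that descend from the same family as Hedgehog ligands. Of 66 tested with their patched-related receptors, 1 was lower, grd-3 (IV 3439655 to 3440453), and 14 were lower and 1 higher at an unadjusted p under 0.05, with a median of -0.21. That median was -0.65 without the 48 h library numbered 3, -0.083 and -0.096 without the 24 h library numbered 1 or 2, and -0.48 without both numbered 3. grd-3 stood at 24.0, 20.1 and 12.4 CPM at 24 h and at 2.1, 2.60 and 7.22 CPM at 48 h (-2.27 ± 0.42, edgeR adjusted p = 0.0136), and both libraries numbered 3 lay nearest to the other time. grl-4, a ground-like gene, missed the threshold at -1.76 ± 0.42 (adjusted p = 0.0540) although its libraries did not overlap.

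Genes that fasten muscle to the cuticle through the hypodermis were also among the falls. These attachments, the fibrous organelles, are hemidesmosome-like structures with intermediate filaments. The intermediate filament gene mua-6 (X 16262289 to 16265686) stood at 11.1, 13 and 12.4 CPM at 24 h and at 2.47, 4.82 and 5.06 CPM at 48 h (-1.57 ± 0.34, edgeR adjusted p = 0.0270). mup-4, a transmembrane protein of the same structures, and pat-12, a component on their cytoplasmic side, fell by 1.14 ± 0.23 and 0.98 ± 0.23. These 2 were picked out after their values were seen, and so was the list they belong to: of 10 tested fibrous organelle genes 3 were lower and 0 higher, with a median of -0.73 and a range from -1.57 to 0.12. Muscle genes themselves had a median of -0.27 (-0.16 and -0.17 without the 24 h library numbered 3 or the 48 h library numbered 1), with 0 of 39 called and 8 lower and 0 higher at an unadjusted p under 0.05. Among them lev-11, the tropomyosin gene, stood at 461, 494 and 818 CPM and then at 367, 418 and 469 CPM, with overlap, and deb-1, the vinculin gene, differed by -0.58 ± 0.20 (adjusted p = 0.229).

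The other named falls belong to no common list. pgp-8 (X 10859301 to 10864422), a P-glycoprotein transporter gene, stood at 17.3, 9.35 and 5.62 CPM at 24 h and at 2.29, 1.253 and 2.17 CPM at 48 h (-2.49 ± 0.51, edgeR adjusted p = 0.0234). pqn-36 and pqn-72, genes of glutamine- and asparagine-rich proteins, fell by 2.19 ± 0.49 and 1.4 ± 0.27. Antimicrobial peptide genes of the epidermis had the lowest median of any list without a call, -0.75, with 0 of 33 called and 11 lower and 0 higher at an unadjusted p under 0.05. Of these, nlp-28 stood at 69.2, 62.6 and 45.8 CPM and then at 35, 35.1 and 34.3 CPM (adjusted p = 0.0928), and nlp-34 differed by -1.83 ± 0.57 (adjusted p = 0.168). Of 28 tested molting genes 0 were called, among them the casein kinase gene kin-20 (-0.44 ± 0.13, adjusted p = 0.108) and the transcription factor gene blmp-1 (-0.61 ± 0.19, adjusted p = 0.154), which both help to time the molts.

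**Figure D3:**
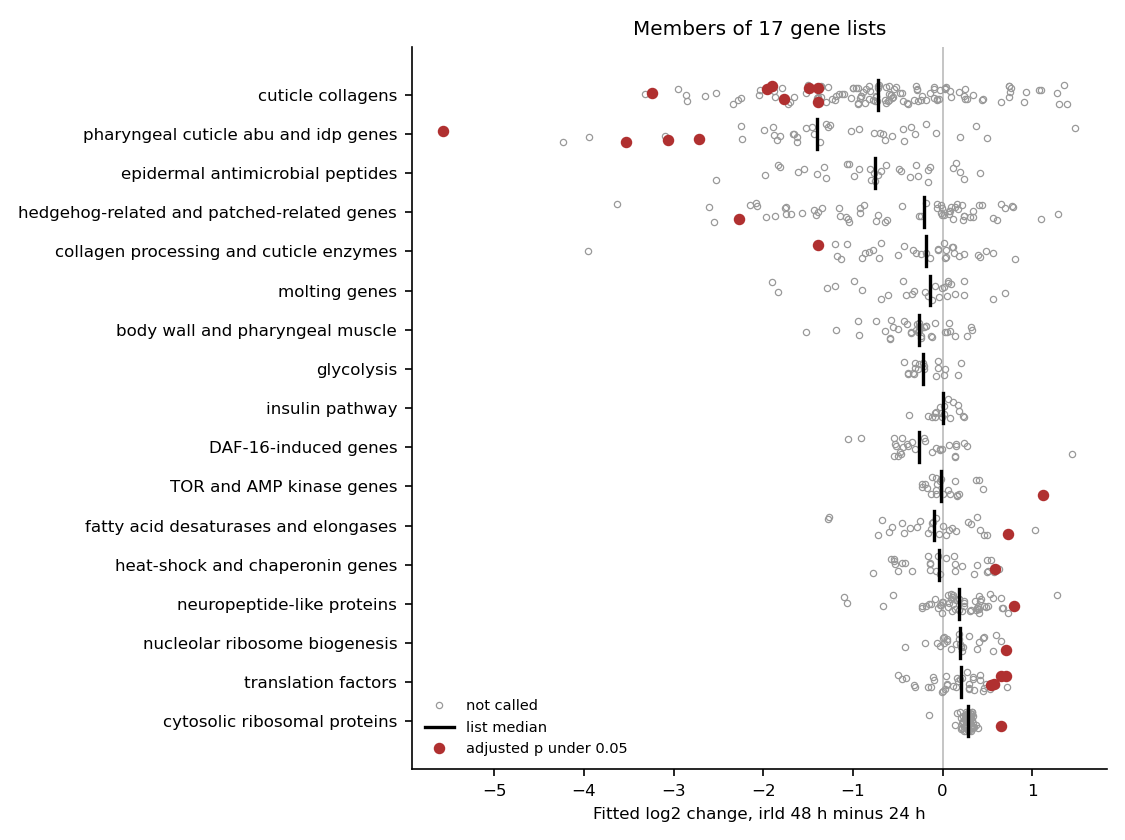
Fitted log2 change from 24 to 48 h in irld (horizontal axis) of every tested member of 17 gene lists; open circles were not called, filled circles had an adjusted p under 0.05 and black bars are list medians. Medians run from -1.4 for the pharyngeal cuticle genes to 0.28 for cytosolic ribosomal proteins, and 4 of 40 translation factors are filled; the point at -5.57 is abu-1, whose size is not usable.

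By the gene lists, 4 of the 63 rises were translation factors, 1 a cytosolic ribosomal protein and 1 a nucleolar ribosome assembly gene. Rises outside these lists were not sorted by process, so the counts are not totals. Initiation factors bring the ribosome to a messenger RNA, with eIF3 as the scaffold and eIF2 carrying the first tRNA. Of 40 tested translation factors 4 were higher and 0 lower, against 0.406% of all genes higher, and 14 were higher and 0 lower at an unadjusted p under 0.05. Their median was 0.21 here and -0.29 under ERCC scaling, where it lay 0.18 above the median gene. The 4 were 3 of the 11 eIF3 subunits and the gamma subunit of eIF2. eif-3.G (II 8442767 to 8444175) stood at 228, 196 and 186 CPM at 24 h and at 350, 321 and 325 CPM at 48 h (0.71 ± 0.12, edgeR adjusted p = 0.0127). eif-3.E stood at 319, 264 and 234.5 CPM and then at 502, 404 and 373 CPM (0.65 ± 0.15, adjusted p = 0.0432). eif-3.I rose by 0.54 ± 0.11 and eif-2gamma by 0.57 ± 0.13. In all 4 the libraries of the 2 times did not overlap, as in 98 of the 99 called genes, so that is no added evidence. Of the 11 eIF3 subunits, the 3 called ones included, 10 lay above 0, and the range was -0.11 to 0.72. Without both libraries numbered 3, 0 translation factors were called and the median was 0.10, as it was without the 48 h library numbered 3 alone.

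Ribosomal protein genes differed little between the times, nearly all to the same side. Of 79 tested, 78 lay above 0 with a median of 0.28, 1 was called higher and 0 lower, and 19 were higher and 0 lower at an unadjusted p under 0.05. Under ERCC scaling the median was -0.15, which lay 0.32 above the median gene. The called member of the list was rpl-24.2 (I 9669415 to 9670098), at 594, 559 and 492 CPM and then 943, 819 and 821 CPM (0.65 ± 0.15, edgeR adjusted p = 0.0416). Whether its product is part of the mature ribosome was not checked. rpl-12, more typical of the list, stood at 1271, 1309 and 1165 CPM and then at 1640, 1623 and 1587 CPM (0.37 ± 0.13, adjusted p = 0.211, and -0.04 under ERCC scaling). Its 3 libraries at 48 h were all above those at 24 h.

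Ribosomes are assembled in the nucleolus. Of 27 tested genes listed for that process 1 was higher and 0 lower, with a median of 0.20. At an unadjusted p under 0.05, 7 were higher and 0 lower. Called genes of that process outside the list were not counted. nst-1 (II 8281162 to 8283208), the nucleostemin GTPase gene, stood at 1128, 1008 and 1000 CPM at 24 h and at 1926, 1615 and 1572 CPM at 48 h (0.71 ± 0.15, edgeR adjusted p = 0.0295). lpd-7, the pescadillo homolog, differed by 0.65 ± 0.17 (adjusted p = 0.0614), grwd-1 by 0.56 ± 0.17 (adjusted p = 0.132) and dao-5 by 0.41 ± 0.12 (adjusted p = 0.116). Under ERCC scaling the list median was -0.22, and 0.25 above the median gene. Enzymes that charge tRNAs had 0 of 31 called, with lars-1, for leucine, at 0.55 ± 0.14 (adjusted p = 0.0614) and rars-1, for arginine, at 0.59 ± 0.17 (adjusted p = 0.109).

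The chaperonin CCT folds actin and tubulin, and 7 of its 8 subunit genes lay above 0. cct-4 was called, at the edge of the threshold, with 710, 627 and 560 CPM at 24 h and 1024, 874 and 936 CPM at 48 h (0.58 ± 0.14, edgeR adjusted p = 0.0499). cct-2 (0.57 ± 0.15, adjusted p = 0.0654), cct-5 (0.49 ± 0.13, adjusted p = 0.0688) and cct-7 (0.51 ± 0.14, adjusted p = 0.103) differed by nearly as much and were not called. The wider list of 30 heat-shock and chaperonin genes had 1 called and a median of -0.04, which lay between -0.24 and 0.13 with single libraries left out, with 8 higher and 1 lower at an unadjusted p under 0.05.

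Among nutrient sensors, aak-1 rose. It encodes a catalytic subunit of the AMP-activated kinase, which responds to low energy and opposes growth signals from TOR. aak-1 (III 8756990 to 8761090) stood at 20.9, 17.7 and 30.1 CPM at 24 h and at 44.4, 41.4 and 64.2 CPM at 48 h (1.12 ± 0.22, edgeR adjusted p = 0.0154). Both libraries numbered 3 were the highest of their time, the groups did not overlap, and an opposite-strand gene overlaps it. The other 8 tested AMP kinase subunit genes were not called, and of 23 TOR and AMP kinase genes aak-1 was the 1 call. let-363, the TOR kinase gene, differed by 0.40 ± 0.21 (adjusted p = 0.536) and mlst-8, its partner, by 0.45 ± 0.16 (adjusted p = 0.232).

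Single genes of lipid and sugar metabolism rose. fat-2 (IV 13323873 to 13326395), the desaturase that makes linoleic acid, stood at 1103, 1159 and 1086 CPM at 24 h and at 1844, 2029 and 1664 CPM at 48 h (0.73 ± 0.16, edgeR adjusted p = 0.0315). fat-6, a stearoyl-CoA desaturase gene, stood at 406, 347 and 373 CPM and then at 840, 789 and 669 CPM. Its difference of 1.03 ± 0.49 was not called (adjusted p = 0.463), although all 3 libraries were higher at 48 h than any at 24 h. elo-2, a fatty acid elongase gene, lay at -0.68 ± 0.21 (adjusted p = 0.172), and of 30 tested desaturases, elongases and relatives 1 was higher and 0 lower. tre-5 (II 52997 to 55304), a trehalase gene, stood at 20.5, 19.6 and 23.1 CPM and then at 56.5, 33.6 and 39.1 CPM (1.03 ± 0.24, adjusted p = 0.0419). It was the 1 called of 11 genes of trehalose and glycerol. rpia-1, ribose 5-phosphate isomerase of the pentose phosphate pathway, rose by 0.78 ± 0.15. Glycolysis had 0 of 19 called, with 5 lower and 0 higher at an unadjusted p under 0.05, among them tpi-1 (-0.38 ± 0.12, adjusted p = 0.153) and pgk-1 (-0.32 ± 0.12, adjusted p = 0.315). For acox-1.4, an acyl-CoA oxidase gene with 106 counts at 24 h and 24 at 48 h, the difference was -2.19 ± 0.58 (adjusted p = 0.0757), and 0 of 59 genes of fatty acid oxidation were called.

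Neuropeptides are the secreted signals of neurons. Of 58 tested genes of neuropeptide-like proteins 1 was higher and 0 lower, and 7 were higher and 0 lower at an unadjusted p under 0.05, with a median of 0.18. nlp-59 stood at 75.5, 83.3 and 78.9 CPM at 24 h and at 120, 120 and 173 CPM at 48 h (0.80 ± 0.17, edgeR adjusted p = 0.0274). nlp-80 differed by 0.66 ± 0.19 (adjusted p = 0.103). Of 30 genes of FMRFamide-like peptides, 0 were called and 26 lay above 0, with a median of 0.30 and flp-25 at 0.51 ± 0.18 (adjusted p = 0.221). The summed FMRFamide-like level was highest at 24 h in the library numbered 3, at 1936 CPM against 1384 and 1472. Without both libraries numbered 3 the medians were 0.38 for the neuropeptide-like and 0.64 for the FMRFamide-like genes. Under ERCC scaling they were -0.18 and -0.09, which lay 0.29 and 0.38 above the median gene.

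The remaining named rises span several processes. pqn-59 (I 379071 to 381902), the homolog of human UBAP2L, stood at 2948, 2750 and 2427 CPM at 24 h and at 6108, 5388 and 5024 CPM at 48 h (1.02 ± 0.16, edgeR adjusted p = 0.00993). dao-6 had the largest rise, from 76.3, 59.9 and 47.9 CPM to 129, 196 and 156 CPM (1.39 ± 0.28, adjusted p = 0.0178). In both genes every 48 h library was higher than every 24 h library. imb-3, a nuclear import receptor gene of the importin beta family, rose by 0.74 ± 0.14, obr-2, of the oxysterol-binding protein family, by 0.72 ± 0.13, and znf-593, a zinc finger gene, by 0.78 ± 0.15. brp-1 rose by 0.78 ± 0.14 and moe-3, a zinc finger gene related to the oocyte factor oma-1, by 0.82 ± 0.19. epg-6 (III 10596610 to 10600188), which binds phosphoinositides on forming autophagosomes, rose by 0.58 ± 0.13 (adjusted p = 0.0315) and was the 1 called of 47 genes of autophagy and the vacuolar ATPase.

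The insulin pathway, to which the mutated genes are related by their domains, gave no call. Of 18 tested pathway genes 0 were called, 1 had an unadjusted p under 0.05 and the median was 0.006. daf-2 stood at 467, 424 and 478 CPM at 24 h and at 503, 478 and 408 CPM at 48 h (0.02 ± 0.21, edgeR adjusted p = 0.988). daf-16 stood at 211, 198 and 303 CPM and then at 282, 247 and 272 CPM (0.17 ± 0.19, adjusted p = 0.843). Both sets overlapped. pdk-1, the kinase that activates AKT, lay at -0.37 ± 0.18 (adjusted p = 0.458). Of 23 tested insulin-like peptide genes and 19 receptor L-domain genes 0 were called, with irld-52 at 0.30 ± 1.09 on its few counts.

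Genes that DAF-16 is known to induce had 0 of 30 called and a median of -0.26. The median rested on single libraries: it was -0.025 and -0.15 without the 24 h library numbered 2 or 3, -0.041, -0.12 and -0.47 without the 48 h library numbered 1, 2 or 3, and -0.42 without both numbered 3. sod-3, the mitochondrial superoxide dismutase, stood at 11, 12.5 and 20.3 CPM at 24 h and at 3.48, 6.75 and 11.1 CPM at 48 h (-1.05 ± 0.32, edgeR adjusted p = 0.151), with the highest 48 h library above the lowest at 24 h. mtl-2, a metallothionein gene, stood higher at 48 h, from 21.6, 17.9 and 14.1 CPM to 32.7, 53.4 and 59.6 CPM, without overlap (1.44 ± 0.49, adjusted p = 0.219). mtl-1 (0.24 ± 0.32) and the small heat-shock gene hsp-12.6 (0.14 ± 0.41) overlapped between times. icl-1, the glyoxylate cycle gene, stood at 40.1, 56.9 and 125 CPM and then at 13.4, 26.3 and 121 CPM (-0.47 ± 0.79, adjusted p = 0.914), so both libraries numbered 3 were far above their partners. Of 10 genes that DAF-16 represses 0 were called, with dod-24 at -1.39 ± 0.71 (adjusted p = 0.506).

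Most lists held no called gene. Of 61 lists with at least 5 tested members, 13 had a called member and 48 had none, with medians between -0.75 and 0.30 among the 48. For genes with a mean of at least 2 CPM (11375 genes) the 95% interval of the change reached 0.45 to either side at the median. Of the 99 called genes 25 were in a list and 74 in none. The share of all tested genes that lie in a list was not counted, so this does not show whether called genes are more often listed.

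N2 libraries, which share no larvae with the irld libraries, were read over the same interval. Both strains are in 1 fit and share its estimate of spread for each gene, so their calls are not independent. In N2, 26 genes changed (0.168%), 19 higher (0.123%) and 7 lower (0.0451%), and an unadjusted p under 0.05 was reached by 5.81% of all genes with a higher and 8.18% with a lower value. Same-numbered N2 libraries correlated at 0.203 to 0.534 in their deviations, but those numbered 2 and 3 also correlated across numbers (0.151 and 0.239). A fit of all 30 libraries with the replicate number as a block called 208 genes in N2, 140 higher and 68 lower. Its block terms are shared by both strains, and it called 243 genes in irld. All 63 rises and all 36 falls of irld had the same sign in N2, where 68.9% of all tested genes shared their sign between strains. Of the 63 rises, 15 were called in N2, or 44 with the block, and 61 had an unadjusted p under 0.05, with a median of 0.62 in N2. Of the 36 falls, 5 were called in N2, or 14 with the block, and 28 had an unadjusted p under 0.05, with a median of -1.0. The 20 genes called in both strains are 20.2% of the irld calls and 76.9% of the N2 calls. Of the 99 irld calls made without the block, 58 (58.6%) were among the N2 calls made with it, 27.9% of those. That overlap, like the 44 rises and 14 falls, sets calls from different fits side by side. The overlap within the blocked fit was not counted. col-98 changed by -1.51 ± 0.25 in N2 (edgeR adjusted p = 0.00869), nas-11 by -1.53 ± 0.25 (adjusted p = 0.00869), pqn-59 by 1.14 ± 0.16 (adjusted p = 0.0038) and fat-2 by 0.92 ± 0.16 (adjusted p = 0.0129). aak-1 missed the threshold there at 1.00 ± 0.22 (adjusted p = 0.0507) and passed it with the block (adjusted p = 0.0156). The cuticle collagen median was -0.37 in N2 and that of the pharyngeal genes -0.95. Since genes chosen for a large change in irld tend to be larger there than in other samples, the larger irld values of the called genes are no evidence of a difference.

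**Figure D4:**
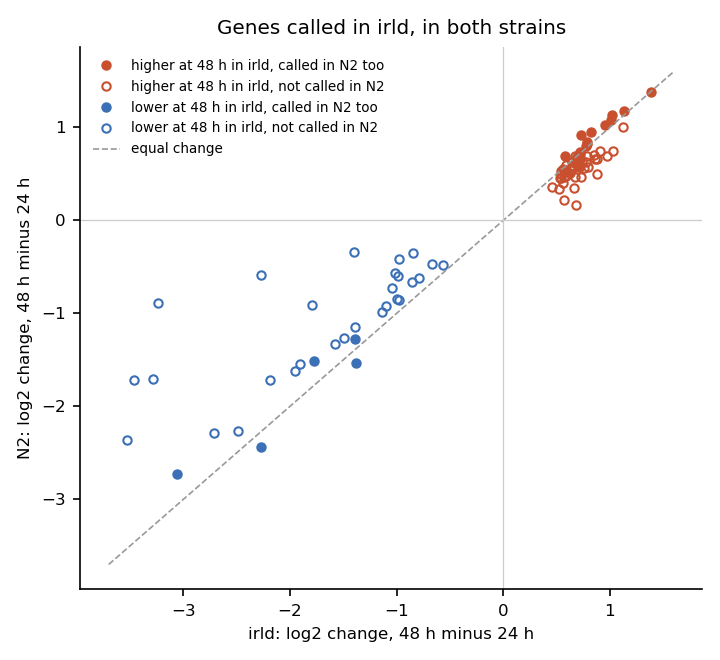
Log2 change from 24 to 48 h in irld (horizontal axis) and in N2 (vertical axis) of the genes called in irld, without fbxa-144, abu-1 and otpl-8, whose sizes are not usable. All points lie in the quadrants of equal sign; filled points are the genes called in N2 too without the block, and the dashed line marks equal change.

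The difference between strains was tested for each gene as irld less N2. edgeR called 0 of 15508 genes (0%), and the lowest adjusted p rounds to 1. An unadjusted p under 0.05 was reached by 291 genes (1.88%), 0.774% of all genes with a higher and 1.1% with a lower value in irld. DESeq2 and limma-voom called 0. This test was less precise than the change within irld, with a median 95% interval of 0.64 to either side over the 11375 genes, so it does not show that the strains changed alike. The smallest p among named genes was that of smg-5, a gene of nonsense-mediated decay, at 1.06 ± 0.27: it lay at 9.31, 9.26 and 9.87 CPM at 24 h and 9.88, 7.13 and 11 CPM at 48 h in irld, while its change in N2 was -1.09 ± 0.20 (edgeR adjusted p = 0.0157). The nuclear hormone receptor gene nhr-179 differed by -1.32 ± 0.36: it lay at 5.49, 4.68 and 5.20 CPM at 24 h and at 2.56, 3.18 and 2.41 CPM at 48 h in irld, which was not called (adjusted p = 0.103). The others were algn-13 (0.76 ± 0.25), mdmh-35 (0.89 ± 0.30) and ced-4, which activates the cell death caspase (0.84 ± 0.28). All 5 had an edgeR adjusted p that rounds to 1.

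The step from 24 to 48 h was also placed in the whole course of irld arrest. The libraries at 72 and 12 h are not part of the contrast that chose the 99 genes, and their comparison was added after seeing the data. They are in the same fit, however, and helped to set each gene's estimate of spread. Calls in the 2 comparisons are therefore not independent. From 12 to 72 h, 32.6% of all genes changed in irld, 15.3% higher and 17.4% lower. All 63 rises were higher there and called, with a median of 1.66, and all 36 falls were lower with 35 called and a median of -2.86, where 74.7% of all genes had the same sign in both comparisons.

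Courses differed between genes. pqn-59 stood at 476 ± 52 CPM (SD, n = 3) at 6 h, 1065 ± 153 at 12 h, 2708 ± 263 at 24 h, 5507 ± 552 at 48 h and 7592 ± 975 at 72 h. aak-1 stood at 10.2 ± 1.6, 16 ± 4.5, 22.9 ± 6.5, 50.0 ± 12.4 and 75.2 ± 16 CPM at the same times. Both means were higher at each later time. col-98 went the other way, at 1176 ± 132, 843 ± 240, 564 ± 86, 165 ± 36 and 73 ± 19.5 CPM. col-42, by contrast, had close levels at the first 3 times, 1949 ± 404, 1997 ± 507 and 2312 ± 572 CPM, and lay at 820 ± 136 CPM at 48 h and 281 ± 114 CPM at 72 h, so that its descent lay after 24 h. abu-8 had most of its descent before 24 h, with 375 ± 138 CPM at 6 h, 27.8 ± 4.1 CPM at 24 h and 3.43 ± 3.06 CPM at 48 h. sod-3 was highest at 24 h, with 3.67 ± 0.56, 8.08 ± 0.91, 14.6 ± 5.0, 7.10 ± 3.82 and 3.52 ± 0.84 CPM. fat-6 stood at 25.7 ± 18.0, 117 ± 47, 375 ± 30, 766 ± 88 and 1168 ± 28 CPM.

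**Figure D5:**
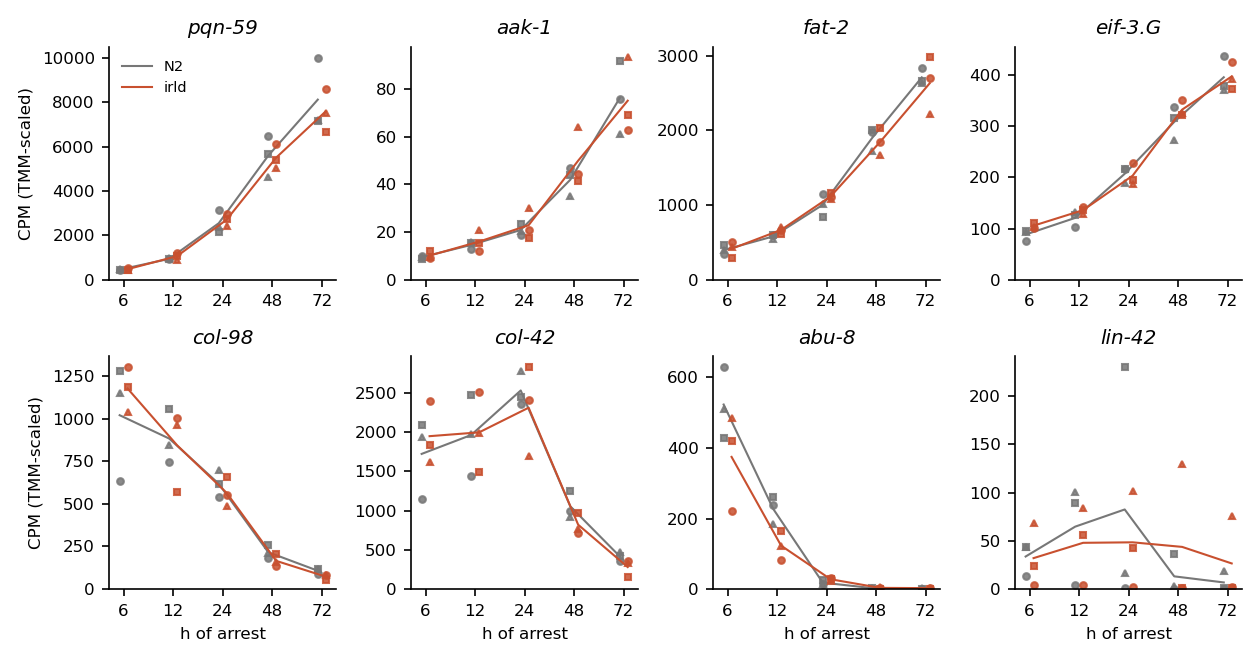
CPM (TMM-scaled, linear axes from 0) of 8 genes at 6, 12, 24, 48 and 72 h of arrest (times evenly spaced on the horizontal axis), orange for irld and grey for N2; symbols are single libraries and lines join group means. pqn-59, aak-1, fat-2 and eif-3.G are higher at 48 than at 24 h in each irld library, col-98, col-42 and abu-8 are lower, while lin-42 is spread between 0.675 and 130 CPM within the irld 48 h libraries.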

How the data were processed

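Polyadenylated RNA of whole L1 larvae was sequenced with 50 bp reads, with 50 ng RNA in each library and ERCC controls added in proportion to RNA. The deposited values are raw counts per gene. The submitters' processing notes name Bowtie 1.2.2, HTSeq 0.11.2 and edgeR 3.24.4, and a text sheet the authors deposited gives WS273 with the ERCC sequences as the genome, with reads of more than 2 alignments dropped. Whether HTSeq used strand is not given in the sources used here. The labels call the replicates biological.

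From the counts, edgeR 4.0.16 (R 4.3.3) was run with TMM factors, its filter on low counts by group, 1 coefficient per group over all 30 libraries and a robust quasi-likelihood F-test; 15508 genes were adjusted together and called at an adjusted p under 0.05. The standard error is the log2 change over the square root of F. The 6 libraries held 8862886 to 12698097 counts, and the biological coefficient of variation was 0.26. The steps were run on simulated counts drawn independently for each gene and library. Deviations shared by many genes of a library, as in those numbered 3, were not part of that trial. Whether replicate numbers pair libraries was read from deviations around group means. Same-numbered libraries at 24 and 48 h correlated at 0.203 to 0.534 in N2, which met the rule set for pairing (over 0.1 in every pair). In irld they correlated at -0.056 to 0.071, which did not meet it. A correlation over all genes does not show that the irld numbers share nothing. Single genes went both ways: asm-3 stood at 58, 22.6 and 2.76 CPM at 24 h and at 51.7, 24.7 and 6.62 CPM at 48 h. By contrast, myo-2 was highest in number 3 at 24 h and lowest in number 3 at 48 h. In N2 the 24 h library numbered 2 also correlated with the 48 h library numbered 3 (0.239), and 3 with 2 (0.151). Given these values across numbers, pairing within numbers 2 and 3 was not shown. Number 1 correlated negatively with the other numbers (-0.267 to -0.375), which taking deviations around group means in part forces. DESeq2 1.42.0, limma 3.58.1, other scalings, filters, sample sets, a replicate block and left-out libraries were alternatives. Coordinates and overlaps come from the Ensembl WBcel235 annotation.

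Named genes were a fixed set of 9, the 12 largest rises and the 12 largest falls among called genes that have a public name (letters, hyphen and number, so that genes known by a sequence name are passed over), a mean of at least 2 CPM and no overlap, the 5 smallest p for the strain difference, and, from each list described, at most 4 genes ranked by p. mup-4, pat-12, fbxa-144, abu-1, otpl-8, lin-42, chs-2, abu-14, myo-2, daf-7, rrn-3.1 and smaller lists within the lists (eIF3, CCT, AMP kinase subunits and fibrous organelles) were added after values were seen. The members and lists were chosen with earlier results of these data known. Promoter motifs were planned and not analysed here.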

Additional observations from a re-analysis of the deposited data

How the results depend on the processing

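The 99 irld calls became 333 with DESeq2, 3 with ERCC scaling, 55 with no filter on low counts, 0 with the compared groups alone (1550 genes at an unadjusted p under 0.05) and 2 with the 15 irld libraries alone. The 33 calls of at least 2-fold became 91 with DESeq2, 20 with limma-voom, 3 with ERCC scaling, 0 with the compared groups alone and 2 with the 15 irld libraries alone. The 26 N2 calls became 328 with DESeq2, 56 with upper quartile scaling, 63 with library size alone, 0 with ERCC scaling, 16 with no filter and 0 with the compared groups alone. With both irld libraries numbered 3 left out, 12 irld genes were called, 11 of them at 2-fold. Leaving out libraries 1 at a time, or all libraries of 1 number, gave 0 to 50 irld calls, 0 to 32 at 2-fold and 0 to 164 in N2. The replicate block gave 243 irld calls, 65 at 2-fold and 208 in N2. By their correlations the numbers met the pairing rule in N2, where libraries numbered 2 and 3 also correlated across numbers, and not in irld. The strain difference stayed at 0 calls in all 26 alternatives. The cause of these shifts was not tested. Of 1550 single-gene alternatives, 1030 kept direction and side of the threshold, 464 lost and 38 gained a call, and 18 turned sign. Those were, under ERCC scaling, irld-52 (-0.23), daf-16 (-0.20), daf-2 (-0.37), hsp-12.6 (-0.44), mtl-1 (-0.38) and rpl-12 (-0.042), and daf-2 with library size alone (-0.11). The others came from left-out libraries, over which irld-52 ranged from -0.11 to 1.44, daf-2 from -0.045 to 0.16, hsp-12.6 from -0.080 to 0.33, icl-1 from -1.90 to 0.14 and fbxa-144 from -6.54 to 0.44.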
